A study of Rattus norvegicus with 8 samples.

Results

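The NADPH oxidase genes examined here are Cybb, Cyba, Ncf1, Ncf4, Rac1 and Rac2, taken as every non-control array spot whose gene name equals one of these symbols. All 6 were found, on 8 of the 45598 distinct probes and 26 spots per array, and they are 6 of the 36179 gene names on the array. They were measured in NR8383, a line of alveolar macrophages established from rat lung lavage, which grows partly attached and partly floating. Biological replicates at passage 200 (P200, n = 4) and at passage 20 (P20, n = 4) were hybridised to 8 single-colour Agilent arrays, and cells of both groups were seeded 48 h before harvest in the same serum-containing medium, with no other treatment named in the labels. NR8383 is 1 cell line, so the replicates are cultures of that line and not animals.

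The phagocyte NADPH oxidase moves electrons from NADPH across a membrane onto oxygen and so makes superoxide, the start of the respiratory burst by which macrophages and neutrophils attack engulfed microbes. At rest its parts are separate: a membrane-bound flavocytochrome b, a cytosolic complex of regulatory proteins, and a small GTPase of the Rac family held in the cytosol by an inhibitor. When a receptor is engaged, the cytosolic proteins are phosphorylated, Rac is loaded with GTP, and all move to the membrane, where the enzyme assembles. Loss of a subunit of this enzyme causes chronic granulomatous disease in people.

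The levels below are log2 of the background-corrected processed signal of a probe less the 75th percentile of its array, so that 0 marks a spot as bright as that percentile, and a change is the P200 mean less the P20 mean. A gene was called changed where limma's adjusted p, over the 15651 genes tested, was under 0.05, and it rose where the change was positive. Of those genes 1791 were called (11.4%), 915 of them higher in P200 (5.85%) and 876 lower (5.60%), and the median change of all genes was 0.00. All 8 probes of the oxidase genes were well above background on all 8 arrays, and none was saturated. Levels of different probes cannot be set against each other, since each probe has its own brightness.

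Ncf4 and Rac2 rose, and Cybb, Cyba, Ncf1 and Rac1 did not pass the test. The 2 that rose are the 2 that lie on chromosome 7, 0.330 Mb apart. Of the 187 genes tested within 5 Mb of Ncf4, 157 had a change above 0. Set against the genes within 5 Mb, neither Ncf4 nor Rac2 passed the test any more.

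The probes that measured each gene are given by their position on the rat assembly rn4, as the array files state it, and their sequences run 5′ to 3′ in the sense of the transcript. Ncf4 was read at chr7:116190216-116190275 on the plus strand, and Rac2 at chr7:116520067-116520126 on the minus strand. Cybb was read at chrX:25518505-25518564 on the minus strand, and Cyba at chr19:52713156-52713215 on the minus strand. Ncf1 was read at chr12:23587232-23587291 on the plus strand, with a second probe at chr12:23585727-23585786. Rac1 was read at chr12:11401260-11401319 on the plus strand, and its second probe lies at chr12:11390067-11391924, where 60 bases of sequence span 1858 bases of genome. The 3 sequences shown whole are the only probe of Ncf4, the only probe of Cybb and the second probe of Rac1.
Ncf4: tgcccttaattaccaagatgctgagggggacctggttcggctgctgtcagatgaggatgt
Cybb: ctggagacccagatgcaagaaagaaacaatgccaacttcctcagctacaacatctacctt
Rac1, second probe: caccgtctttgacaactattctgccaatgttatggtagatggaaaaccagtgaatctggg
The other 3 are shown as the 30 bases around the hexamer AATAAA, the usual polyadenylation signal, which is in capitals.
Rac2: gcttatgcagaaAATAAAtgtgttgattct
Cyba: tgatgcccactgtAATAAAcatggttaata
Ncf1: aagtgtaatcggAATAAAccctttcctccc
On the printed strand 3 of the 8 oxidase probes hold AATAAA, as do 9.04% of all 45598 probes. On the other strand, where it reads TTTATT, 0 of the 8 hold it and 3.53% of all probes do. A match describes the letters of a probe only.

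Cybb encodes the large, heme-bearing and NADPH-binding subunit of the flavocytochrome, the catalytic core of the enzyme. Its log2 levels were -0.45, -0.28, 0.13 and -0.08 in P200 replicates 1 to 4, against -0.02, 0.33, 0.02 and -0.22 in P20 replicates 1 to 4. P200 replicate 1 was the lowest array and P20 replicate 2 the highest, and the groups overlapped. The mean was -0.17 ± 0.25 in P200 and 0.03 ± 0.23 in P20 (SD, n = 4 each), a change of -0.20 ± 0.15 (SE) with a limma adjusted p of 0.502. The 95% interval of the change ran from -0.54 to 0.15, which is 0.686 to 1.11 times the P20 level. Cybb had the widest such interval of the 6 genes.

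Cyba encodes the small membrane subunit, which holds Cybb stable and gives the cytosolic proteins their docking site. Its levels were 6.59, 6.76, 6.72 and 7.08 in P200 and 6.71, 6.51, 6.70 and 6.76 in P20. The groups overlapped, with P200 replicate 4 above every other array and P20 replicate 2 below every other. The change was 0.12 ± 0.11 (adjusted p = 0.591), with an interval from -0.13 to 0.37. Cyba was printed in 10 spots per array, whose log2 values differed with an SD of 0.055 to 0.065 on the P200 arrays and 0.059 to 0.227 on the P20 arrays. The widest spread was on P20 replicate 2, where single spots ran from 109651 to 171495 in processed signal.

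Ncf1 encodes the organiser, which carries the cytosolic complex to Cyba once it is phosphorylated. Its levels were 2.42, 2.35, 2.42 and 2.46 in P200 and 2.38, 2.46, 2.50 and 2.45 in P20. All 8 arrays lay close together and the groups overlapped. The mean was 2.41 ± 0.04 in P200 and 2.45 ± 0.05 in P20 (SD, n = 4 each). The change of -0.03 ± 0.06 (adjusted p = 0.781) had the narrowest interval of the 6 genes, from -0.16 to 0.09, or 0.894 to 1.07 times the P20 level. The second Ncf1 probe also changed by -0.03 ± 0.07, with an adjusted p of 0.833 in the fit of all probes.

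Ncf4 encodes a regulatory partner of the cytosolic complex that binds a phosphoinositide on the phagosome membrane and sustains superoxide production there. Its levels were 2.98, 2.45, 2.88 and 2.75 in P200, against 2.10, 1.99, 2.33 and 2.19 in P20. All 4 P200 arrays lay above all 4 P20 arrays, the nearest pair being P200 replicate 2 and P20 replicate 3. The mean was 2.76 ± 0.23 in P200 and 2.15 ± 0.14 in P20 (SD, n = 4 each). The change was 0.61 ± 0.12, or 1.53-fold (95% interval 1.26 to 1.86), with a limma adjusted p of 0.0138. Before scaling, its processed signal ran from 6581 to 14774 in P200 and from 6348 to 7348 in P20, and these ranges overlap. The separation is seen once each array is set against its own 75th percentile, which ran from 979 to 1869 in P200 and from 1360 to 1717 in P20.

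Rac2 encodes the Rac GTPase of blood cells, which in its GTP form binds the cytosolic complex and switches on electron transfer. Its levels were 3.10, 3.01, 3.26 and 3.14 in P200, against 2.65, 2.48, 2.81 and 2.74 in P20. Here too every P200 array lay above every P20 array once scaled. Before scaling, its mean processed signal ran from 8635 to 15988 in P200 and from 8886 to 10776 in P20, and these ranges overlap. The mean was 3.13 ± 0.10 in P200 and 2.67 ± 0.14 in P20 (SD, n = 4 each). The change was 0.46 ± 0.09, or 1.38-fold (95% interval 1.20 to 1.58), with an adjusted p of 0.0111. Rac2 was also printed in 10 spots per array, and the SD over those spots was 0.023 to 0.049 on the P200 arrays and 0.031 to 0.060 on the P20 arrays, below the SD between arrays of either group.

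Rac1 encodes the Rac GTPase found in nearly all cells, which serves the oxidase in macrophages beside its part in the actin skeleton. Its levels were 2.46, 2.61, 2.60 and 2.88 in P200 and 2.70, 2.83, 2.69 and 2.74 in P20. The P200 arrays spread on both sides of the P20 arrays. The change was -0.10 ± 0.09 (adjusted p = 0.578), with an interval from -0.31 to 0.11, and the second probe changed by -0.11 ± 0.09 (adjusted p = 0.552). For Rac1 as for Ncf1, the changes read by the 2 probes differed by less than their standard errors.

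**Figure D1:**
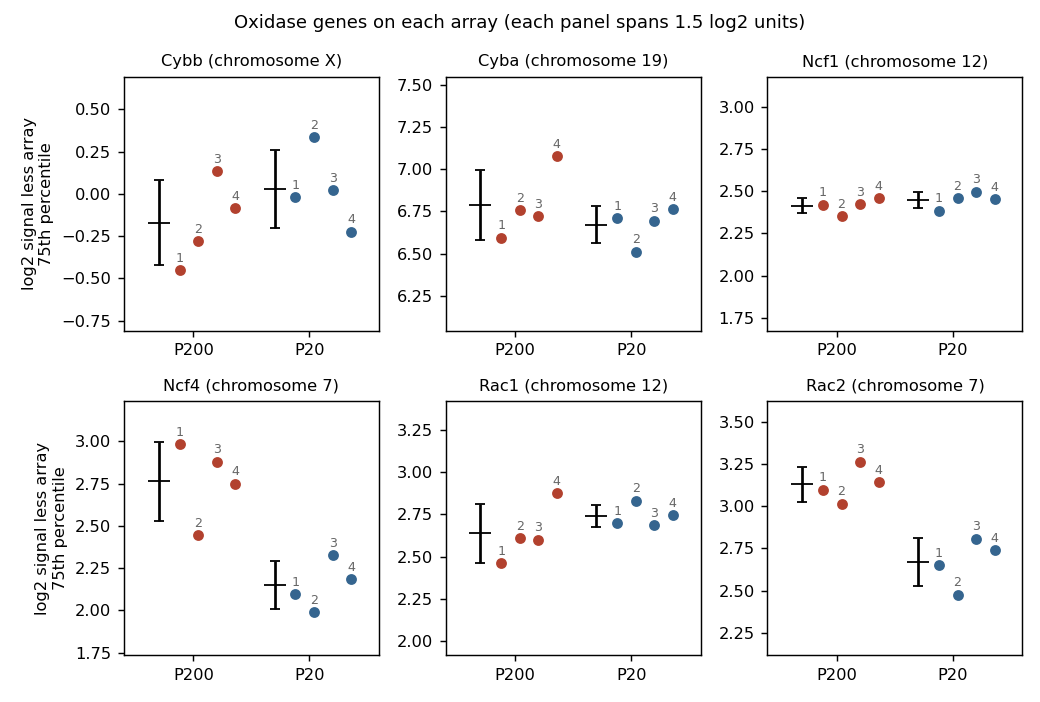
Scaled log2 signal (vertical axis) of the 6 oxidase genes on each array, P200 in red and P20 in blue, with replicate numbers beside the points and the mean ± SD (n = 4) as a black bar. Ncf4 and Rac2 separate the groups, with P200 higher, while the groups overlap for Cybb, Cyba, Ncf1 and Rac1.

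Of the 6 genes 2 rose, beside 5.85% of all genes, and 0 fell by limma, beside 5.60%. None of the 6 fell at an unadjusted p under 0.05 either. The same 2 had all P200 arrays above all P20 arrays, which 9.65% of all genes did. Ranked by change among all 15651 genes, Ncf4 stood at the 97.1 percentile and Rac2 at the 95.2 percentile. Cyba stood at the 73.9 percentile, Ncf1 at 41.3, Rac1 at 27.2 and Cybb at 14.6. The catalytic core, its membrane partner, the organiser and Rac1 had changes between -0.20 and 0.12.

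Macrophage identity was checked with 14 markers on the array. Of these 11 were well above background in both groups, and Adgre1 and Cd163 on 0 arrays. Of the 11 tested, Msr1, Cd14 and Itgam fell and 0 rose, where 5.60% of all genes fell and 5.85% rose. The summed linear level of the markers, which the brightest probes dominate, was 209 to 219 in P200 and 216 to 256 in P20. Among 13 markers of granulocytes and mast cells, the other cells rich in this oxidase, 11 including Mpo, Elane, S100a8 and S100a9 were well above background on 0 arrays. The summed level of all 13 was 0.671 to 0.871 in P200 and 1.51 to 1.70 in P20. Nearly all of that sum was Camp, with a mean log2 level of -0.47 in P200 and 0.65 in P20, so it does not describe the list. Camp, the 1 marker of that list that was tested, fell by 1.13 (adjusted p = 5.80e-05), and Nkg7 rose by 1.49 (adjusted p = 0.000211) among the 2 tested lymphocyte markers. Of the 8 lymphocyte markers on the array, 3 were well above background on 0 arrays, and the summed level was 0.204 to 0.268 in P200 and 0.119 to 0.274 in P20. Markers of lung epithelium, fibroblasts and endothelium gave 0 calls among 0, 3 and 3 tested genes. On arrays of whole cultures, fewer cells of a type and less RNA per cell cannot be told apart, and the part of Msr1, Cd14, Itgam, Camp or Nkg7 in the oxidase values was not tested.

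The arrays lay in 2 rows of 1 slide, and row and passage were partly mixed, with P20 replicate 1 and P200 replicates 2, 3 and 4 in row 1 and the other 4 in row 2. Within row 1 the change of Ncf4 was 0.59, and within row 2 it was 0.81. Within those rows Rac2 changed by 0.49 and 0.42. Row 1 and row 2 gave -0.06 and -0.50 for Cybb, 0.14 and -0.06 for Cyba, 0.03 and -0.05 for Ncf1, and -0.00 and -0.29 for Rac1. With the row as a block in the fit, Ncf4 changed by 0.70 (adjusted p = 0.0209) and Rac2 by 0.46 (adjusted p = 0.0458).

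Map position was the next comparison. Of the 187 genes tested within 5 Mb of Ncf4, 88 rose and 3 fell, so that 48.7% were called, against 11.4% of all genes. Their median change was 0.32, against 0.00 for all genes. The window around Rac2 holds nearly the same genes: 87 rose and 3 fell of 184, with a median of 0.32. With each gene centred on its own mean, the median of the genes around Ncf4 was 0.16, 0.10, 0.11 and 0.29 in P200 replicates 1 to 4, against -0.21, -0.18, -0.16 and -0.09 in P20. The P200 arrays lay above the P20 arrays for the neighbourhood as they did for Ncf4 itself.

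The other 4 genes lie in surroundings with medians near 0. Around Cybb on chromosome X, 5 genes rose and 3 fell of 62, with a median change of 0.00. Around Cyba on chromosome 19, 5 rose and 3 fell of 100, with a median of 0.03. Around Ncf1 on chromosome 12, 4 rose and 11 fell of 116 (median -0.05), and around Rac1, 12.2 Mb away on that chromosome, 11 rose and 6 fell of 107 (median 0.03).

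Seen in steps of 5 Mb, the higher signal on chromosome 7 began about 50 Mb below Ncf4 and ran to the last gene measured above it. From that point on, 244 genes rose and 14 fell of 556, with a median change of 0.32. On the rest of the chromosome 17 rose and 21 fell of 380, with a median of -0.01. The dividing point was placed after these steps were seen, so the 2 stretches are a description. The step from 35 to 30 Mb below Ncf4 holds only 5 genes, with a median of -1.24, and goes against the others.

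**Figure D2:**
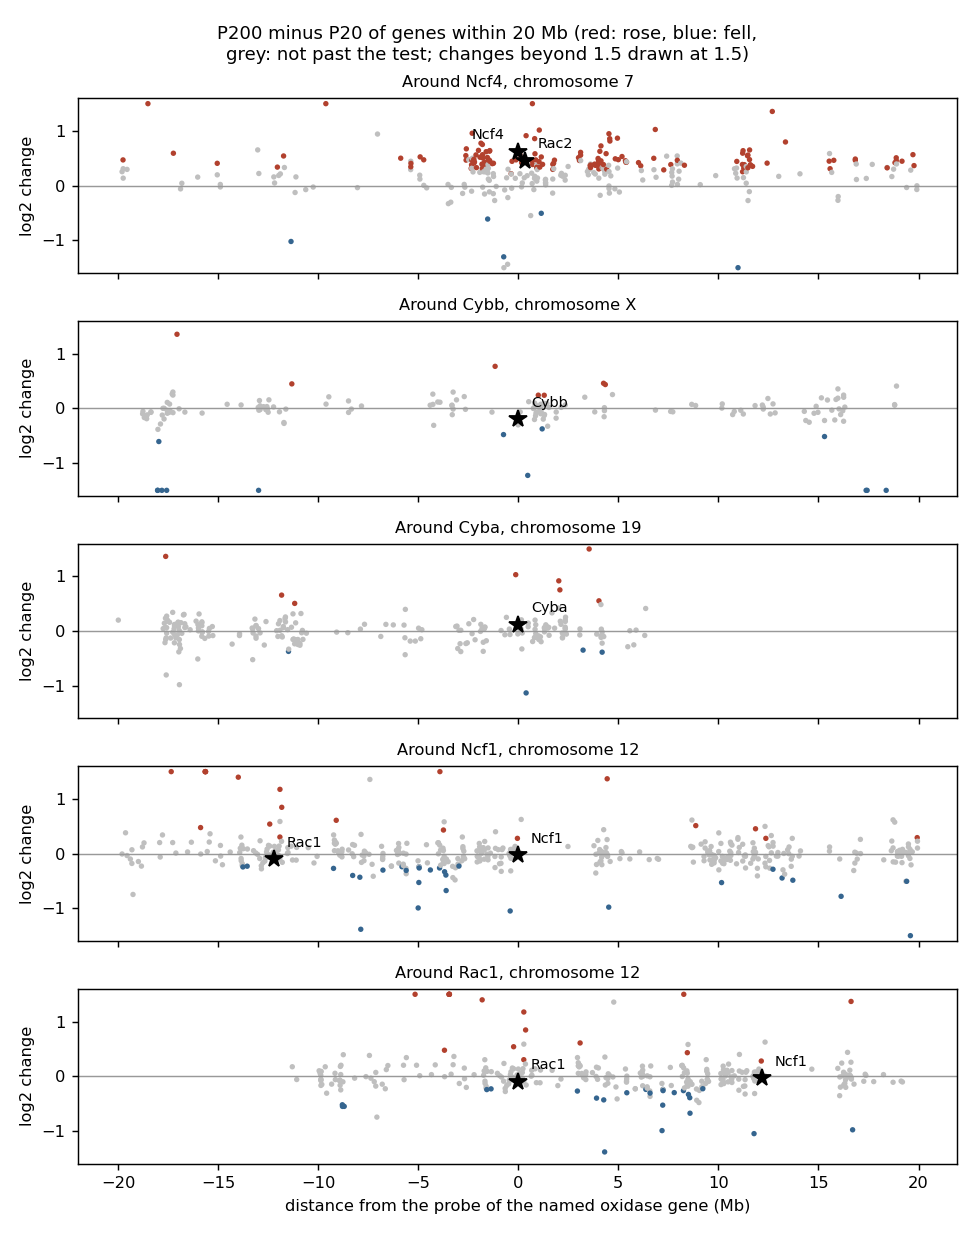
Change of each gene, P200 less P20 in log2 units, against its distance in Mb from an oxidase gene, with the oxidase genes as stars. Rac2 shares the panel of Ncf4. The points around Ncf4 and Rac2 lie mostly above 0 (median 0.32 within 5 Mb), while those around Cybb, Cyba, Ncf1 and Rac1 lie around 0 (medians -0.05 to 0.03).

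Each gene was then expressed, on each array, as its level less the median level of the genes within 5 Mb. Those levels were not centred per gene, so the shift taken off can differ from the median change of the neighbours given above. The same limma fit was run over the 14692 genes with at least 5 such neighbours. In that fit 10.3% of all genes were called, and 0 of the 6 oxidase genes were, also at an unadjusted p under 0.05. Ncf4 changed by 0.27 ± 0.12 relative to its neighbours, with an adjusted p of 0.217, an unadjusted p of 0.0533 and a 95% interval from -0.00 to 0.54. Its groups overlapped on this scale, and 18 of its 187 neighbours had a larger change than Ncf4. Rac2 changed by 0.08 ± 0.10 relative to its neighbours (adjusted p = 0.661, interval -0.13 to 0.30), and 49 of its 184 neighbours had a larger change.

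Cybb was at -0.30 ± 0.15 relative to its neighbours (adjusted p = 0.262), Cyba at 0.09 ± 0.12 (adjusted p = 0.721), Ncf1 at -0.02 ± 0.07 (adjusted p = 0.877) and Rac1 at -0.16 ± 0.11 (adjusted p = 0.407). Of the 6 genes Ncf4 had the highest estimate and Cybb the lowest. These estimates are not the change less the median change of the neighbours. Cybb stood at -0.20 before this step, with a median change of 0.00 around it. Rac2 stood at 0.46, with a median change of 0.32 around it. A p above the threshold does not show that Ncf4 or Rac2 moved exactly as its neighbours did. The upper end of the interval was 0.54 for Ncf4 and 0.30 for Rac2. On the linear scale these are a 1.45-fold and a 1.23-fold rise relative to the neighbour median. Within slide row 1 the neighbour-corrected change of Ncf4 was 0.15 and within row 2 it was 0.49, and for Rac2 these values were 0.08 and 0.03.

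**Figure D3:**
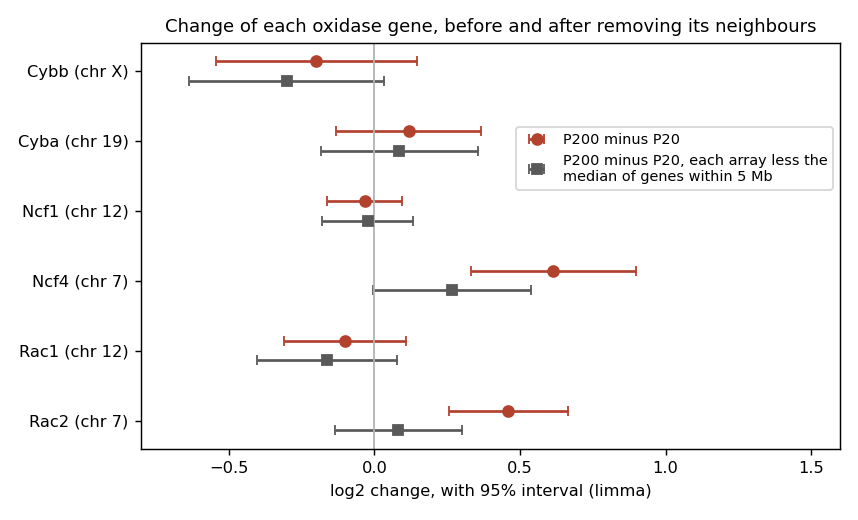
Change of each oxidase gene, P200 less P20 in log2 units with its 95% limma interval, as measured (red circles) and relative to the genes within 5 Mb (grey squares). Ncf4 lies at 0.61 as measured and at 0.27 relative to its neighbours, and Rac2 at 0.46 and 0.08, while the intervals of Cybb, Cyba, Ncf1 and Rac1 cover 0 on both scales.

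The genes next to each oxidase gene were taken as the 3 nearest on either side that were tested. Beside Ncf4 lies Csf2rb, the shared beta chain of the GM-CSF, IL-3 and IL-5 receptors, 0.081 Mb away. Csf2rb rose by 0.57 ± 0.11 (adjusted p = 0.0104), with all P200 arrays above all P20 arrays. On the other side Ift27, an intraflagellar transport GTPase, rose by 0.47 (adjusted p = 0.00924) and Eif3d, a subunit of a translation initiation factor, rose by 0.45 (adjusted p = 0.00423). Tst, a mitochondrial sulfurtransferase 0.165 Mb from Ncf4, had a change of -0.02 (adjusted p = 0.959).

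Beside Rac2, Cyth4 rose by 0.91 ± 0.10 (adjusted p = 0.000354). Cyth4 is a blood-cell exchange factor for ARF GTPases and lies 0.062 Mb away. Mpst, another sulfurtransferase, rose by 0.42 (adjusted p = 0.0112). Tmprss6, a membrane serine protease, had a change of 0.05 (adjusted p = 0.936), and Lgals2, a galectin, had one of -0.55 (adjusted p = 0.173). Genes that did and did not pass the test stood side by side within this stretch. The named ones that did not pass, Tst, Tmprss6 and Lgals2, were dim, with group means from -6.26 to -4.93. Csf2rb, Ift27, Eif3d, Cyth4 and Mpst, which passed, had group means from -3.27 to 2.38. Unnamed transcripts that did not pass were in part as bright as these. Such a transcript beside Ncf4 had group means of -0.89 and -1.03 and a change of 0.13. Another, beside Rac2, had group means of -2.09 and -2.27 and a change of 0.18. The remaining unnamed ones beside these genes were dim, with group means from -5.48 to -4.60. The part of signal level in this contrast was not tested.

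Around the other 4 genes, single neighbours passed the test while the oxidase gene did not. Zfpm1, a GATA cofactor 0.126 Mb from Cyba, rose by 1.03 ± 0.11 (adjusted p = 0.000388), while Mvd, Rnf166, Ctu2 and Zc3h18, all nearer to Cyba, had changes between -0.05 and 0.17 that did not pass. Cyth3, a relative of Cyth4 on chromosome 12 and 0.232 Mb from Rac1, rose by 0.54 ± 0.06 (adjusted p = 0.000349), while Daglb, Kdelr2, Fam220a and Usp42 did not pass. Gtf2i, a general transcription factor gene 0.042 Mb from Ncf1, rose by 0.28 (adjusted p = 0.0292), while Gtf2ird1, Gtf2ird2, Rcc1l and Castor2 did not pass. Of these, Castor2 had a larger change than Gtf2i, of 0.63 ± 0.20 (adjusted p = 0.0897). All its P200 arrays lay above all its P20 arrays, at dim group means of -4.64 and -5.27. Dynlt3, a dynein light chain gene 0.028 Mb from Cybb, changed by -0.22 (adjusted p = 0.308), and Fthl17b, a ferritin-like gene 0.474 Mb away, fell by 1.23 (adjusted p = 0.0447). A transcript without a gene symbol, 0.736 Mb from Cybb, fell by 0.48 (adjusted p = 0.0483). Another such transcript, the nearest to Cybb at 0.004 Mb and the most like it in pattern, changed by -0.30 (adjusted p = 0.195). The nearest 3 on either side of Cybb all had changes below 0, from -1.23 to -0.07.

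Genes whose pattern over the 8 arrays was among the 3 most like an oxidase gene were found by the root mean square difference of mean-centred log2 values. For Ncf4 these included Fxyd2 (0.084) and Slc6a20a (0.109), both on chromosome 8. For Rac2 they were Dcaf13 (0.068) and Pfdn5 (0.079), both on chromosome 7, and Lhpp (0.083) on chromosome 1. For Ncf1 the named genes were Rpl6 (0.016) and Trim25 (0.021), for Rac1 Hax1 (0.044) and Gmppb (0.045), and for Cybb the nearest patterns belonged to transcripts without a gene symbol. Likeness here is over 8 arrays of 2 groups and is a description.

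The remaining genes of the pathway were taken from 7 lists of 161 genes, of which 130 passed the filter on dim probes. Of these 5 rose and 6 fell, with a median change of -0.04, against 11.4% of all genes called and a median of 0.00. Counts at an unadjusted limma p under 0.05, given below for each list, stand against 3703 of the 15651 genes (23.7%). Gata2 and Src, among the 11 that passed, were not well above background on every array of both groups. The 7 that lie on chromosome 7 had a median change of 0.22, and 1 of them, Csf2rb, rose. The other 123 had a median of -0.04, and 4 of them rose and 6 fell. Among the chromosome 7 genes, Txn2, a mitochondrial thioredoxin 0.351 Mb below Ncf4, had a change of 0.21 (adjusted p = 0.0794), Racgap1, a Rac GTPase-activating protein, one of 0.22 (adjusted p = 0.0986) and Irak4, a kinase of Toll-like receptor signalling, one of 0.40 (adjusted p = 0.250). These 3 lie in the raised stretch, were named after their values were seen, and did not pass. Outside that stretch on chromosome 7 lie Gpx4 at 0.25, Txnrd1 at -0.05 and Rap1b at -0.19, none of them past the test. Gpx4 and Txnrd1 were likewise named after their values were seen. The median of 0.22 covers genes within and outside the stretch.

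Other subunits of this enzyme family were 12 genes, of which 5 were measured and 0 passed in either direction, with 1 at an unadjusted limma p under 0.05 and a median change of -0.12. Cybc1, a chaperone needed to make the flavocytochrome, changed by -0.12 ± 0.08 (adjusted p = 0.412). The smallest p belonged to Cyb5r4, a flavoheme reductase, at -0.21 ± 0.08 (adjusted p = 0.162). Nox1, Nox3, Nox4, Duox1, Duox2 and Duoxa1, the oxidases of other tissues and a maturation factor, were well above background on 0 arrays.

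Regulators and relatives of the Rac GTPases gave 0 rises and 0 falls among 23 measured genes by limma, with 5 at an unadjusted p under 0.05 and a median of -0.04. The smallest p in that list was that of Rap1b, a small GTPase closely related to Rap1a, which copurifies with the flavocytochrome of neutrophils, at -0.19 ± 0.05 (adjusted p = 0.0517). Kinases and lipid enzymes that prime or activate the oxidase gave 0 rises and 2 falls of 31, with 5 at an unadjusted p under 0.05 and a median of -0.03. Src, a tyrosine kinase, was well above background on 4 P20 arrays and 0 P200 arrays. It thus passed the filter on dim probes only through P20, where it was brighter. Its limma adjusted p of 3.98e-06 belongs to the fitted change of -2.81, which rests on P200 signals not well above background. As a bound, for which no p was computed, Src was at least 2.90-fold lower in P200. That bound sets the P20 mean of -5.36 against the lowest signal well above background on each P200 array, where that exceeded the Src signal, and the P200 mean as measured was -8.16. Coro1a, an actin-binding protein that associates with the cytosolic complex, fell by 0.74 ± 0.11 (adjusted p = 0.00342).

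Genes that dispose of superoxide and peroxide gave 0 rises and 1 fall of 16, with 4 at an unadjusted p under 0.05 and a median of -0.01. The fall was that of Gclc, the catalytic subunit of glutathione synthesis, by 0.39 ± 0.08 (adjusted p = 0.0136). Genes that supply NADPH gave 1 rise and 0 falls of 16, with 4 at an unadjusted p under 0.05 and a median of 0.06. The rise was that of Nadk, the kinase that makes NADP from NAD, by 0.28 ± 0.06 (adjusted p = 0.0221).

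Transcription factors known to act on oxidase genes in blood cells gave 2 rises and 1 fall of 22, where 5.85% and 5.60% of all genes rose and fell. In that list 7 genes had an unadjusted p under 0.05, and the median was -0.03. Gata2 was well above background on 4 P200 arrays and 2 P20 arrays, so it passed the filter on dim probes only through P200, where it was brighter. Its fitted change of 0.79 ± 0.12 (adjusted p = 0.00403) rests on a P20 level that was measured above background on 2 of the 4 arrays. Cebpe, a granulocyte maturation factor, rose by 0.30 ± 0.06 (adjusted p = 0.0126), and Nfkb1 fell by 0.31 ± 0.07 (adjusted p = 0.0220). Spi1, the master factor of macrophages and an activator of the Cybb and Ncf genes, changed by -0.05 ± 0.09 (adjusted p = 0.805).

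Receptors that trigger or prime the burst gave 2 rises and 2 falls of 17, with 9 at an unadjusted p under 0.05 and a median of -0.12. Ptafr, the receptor for platelet-activating factor, fell by 1.05 ± 0.12 (adjusted p = 0.000594), and Itgam, the alpha chain of complement receptor 3, fell by 0.78 ± 0.13 (adjusted p = 0.00528). Csf2rb, given above, and Tlr4, the lipopolysaccharide receptor, rose. Tlr4, outside the naming rule and named after its value was seen, changed by 0.40 ± 0.06 (adjusted p = 0.00408).

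**Figure D4:**
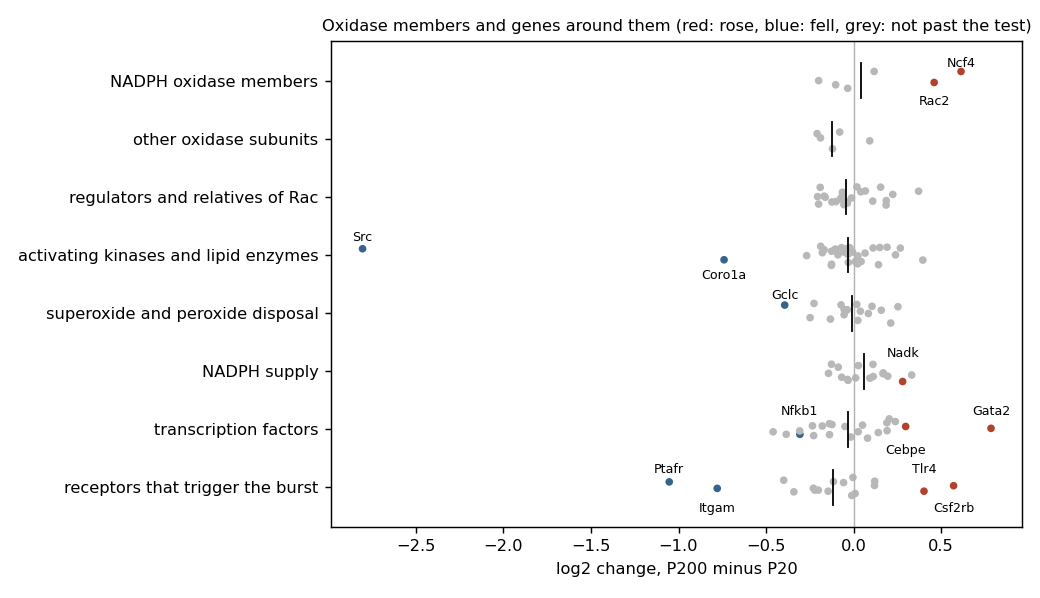
Change of each measured gene, P200 less P20 in log2 units, for the 6 oxidase genes and the 7 lists around them, with genes past the limma test coloured and named and a black line at each median. The list medians lie between -0.12 and 0.06, and Ncf4 and Rac2 stand to the right among the oxidase genes. Src was below background in P200, so its point is a fitted value and not a bound.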

How the data were processed

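Total RNA of 8 cultures was labelled with Cy3 and hybridised to 8 arrays, which share 1 slide and 1 scan by their headers. Spot intensity in the deposited files is linear, background-subtracted within each array but not normalized between arrays, made with Agilent Feature Extraction 11.0.1.1 per the submitters' processing notes. Control spots (4259 of 62976) and spots marked as outliers were left out. The log2 processed signals of the spots of a probe were averaged, less the array's 75th percentile, and 84 probes without a usable spot on some array were dropped. Probes well above background on all 4 arrays of at least 1 group entered (19458), and the probe with the highest mean stood for a gene (15651 genes). P200 and P20 were compared with limma 3.58.1 in R 4.3.3 (lmFit, eBayes, two-sided, Benjamini-Hochberg over all genes). Names came from the RefSeq table of assembly GRCr8 by accession (21102 probes) or symbol (7122), otherwise from the files (17374). Positions are the files' own on rn4. The fits were tested on simulated data. The number of arrays limits the precision.

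Spots well above background made up 51.0% to 54.5% of each array, and 0 were saturated. The members and lists were chosen with earlier results of these data known. Genes named beyond the 6 are the nearest 3 on each side, the 3 most alike in pattern, and in each list up to 3 with the largest change among those that passed, else the 1 with the smallest p. Transcripts known only by an identifier are not named. Alternatives were another scaling, background correction, dim-probe filter, probe rule, slide row or replicate number as a block, the deposited value table, an intensity trend, other windows and leaving out each array. The values within each slide row were added after the data were seen. Promoter sequences were not used here, and a few results are not reported here.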

Additional observations from a re-analysis of the deposited data

How the results depend on the processing

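The rises of Ncf4 and Rac2 kept their direction under all 17 alternatives and stayed past the threshold under 16. The exception was the fit with no filter on dim probes, in which 36119 genes were tested: Ncf4 changed by 0.61 with an adjusted p of 0.0956 and Rac2 by 0.46 with an adjusted p of 0.0993, so that 0 oxidase genes rose, against 2. Over all alternatives Ncf4 ran from 0.54 to 0.72 and Rac2 from 0.40 to 0.52. Leaving out each array in turn gave 0.54 to 0.72 for Ncf4 (adjusted p 0.00396 to 0.0444) and 0.40 to 0.51 for Rac2 (adjusted p 0.0156 to 0.0365). Relative to their neighbours, none of the 6 genes passed under any of the 12 alternatives, with Ncf4 at 0.20 to 0.42 (adjusted p 0.116 to 0.406) and Rac2 at 0.02 to 0.19 (adjusted p 0.372 to 0.935). Ncf1, which did not pass, ran from -0.08 to 0.03, and Cyba relative to its neighbours from -0.02 to 0.17.

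Of all genes, 386 rose and 414 fell with no filter, against 915 and 876. Scaled by the median of each array, 736 rose and 421 fell, so that 63.6% of the calls were rises, against 51.1%. Without P20 replicate 3, 661 rose and 560 fell, and relative to neighbours 471 and 534, against 687 and 833. With the slide row as a block 686 rose and 583 fell, and relative to neighbours 474 and 547. Arrays of the same replicate number did not deviate together throughout (correlations 0.02, 0.13, -0.00 and 0.28 for numbers 1 to 4), so the numbers were not taken to pair the samples. With the replicate block Ncf4 changed by 0.61 (adjusted p = 0.0137) and Rac2 by 0.46 (adjusted p = 0.00973), relative to neighbours Ncf4 changed by 0.27 (adjusted p = 0.116) and Rac2 by 0.08 (adjusted p = 0.625), and no call of an oxidase gene changed. In the deposited value table the P200 columns 1, 2, 3 and 4 hold scanner arrays 2, 3, 4 and 1, and the numbers above are those of the scanner files. Which numbering is that of the cultures is not known, so the correlations and the replicate block hold for the scanner numbering only.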
